A study of Mus musculus with 50 samples.

Results

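The 10 secreted ligands of blood vessel growth described here were followed by their transcripts: the VEGF family genes Vegfa, Vegfb, Vegfc and Pgf, the angiopoietin genes Angpt1 and Angpt2, the angiopoietin-like gene Angptl4, the apelin gene Apln, and the platelet-derived growth factor genes Pdgfa and Pdgfb. They were taken by name from a list rather than by a rule on measured values, though with earlier results of these data known, and all 10 were found among the 21954 genes of the deposited tables. RNA was sequenced from wound beds of amputated mouse digits and from cultured macrophages, 50 libraries in all. The digits came from male C57Bl/6 mice of 9 to 10 weeks whose hindlimb digit 3 was amputated through the terminal phalanx and from which the tissue around the wound was taken as a mixture of cell types. The 29 digits labelled NR, for non-regenerative, carried amputation levels of 60% to 80% in their labels and were taken at 0 h, 3 h, 6 h, 12 h, 24 h, 3 d, 7 d, 14 d and 21 d, with 5 digits at 7 d and 3 at each other time. The study's methods set non-regenerating digits at over 67%, so some NR digits lie below that limit. Levels also differed between times, being 64%, 64% and 67% at 12 h and 71%, 79% and 79% at 21 d. The 12 digits labelled Medium carried levels of 41% to 55% and were taken at 0 h, 24 h, 14 d and 21 d, 3 at each. The 0 h digits, taken at amputation, served as the reference; intact digits were not analysed here. The macrophages were grown from bone marrow of female C57BL/6 mice of 6 to 8 weeks, and 3 libraries each were unstimulated (M0), treated with IFN-γ and LPS for 24 h (M1) or treated with IL-4 for 24 h (M2); for M0 the labels give a baseline and no time. No transgene or deletion is given for these mice in the sources used here.

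VEGF family ligands bind tyrosine kinase receptors on endothelial cells, the cells that line vessels, and drive them to divide and sprout. Angiopoietins act on the receptor Tek and set whether vessels are held stable or loosened for remodelling, apelin acts on its G protein-coupled receptor Aplnr, and the PDGFs recruit the mural cells that wrap vessels. In wounds such ligands are made by keratinocytes, fibroblasts and macrophages as well as by endothelial cells themselves, so a tissue level sums many sources.

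The promoter windows of Apln and Vegfa are shown because Apln was the ligand that rose and stayed raised in the digits and Vegfa was the ligand with the highest level in most digit groups. RefSeq windows (250 bases before to 50 after an annotated start, GRCm38.p6, gene strand, 5′ to 3′) were held for 6 of the 10 ligands. Capitals mark matches on either strand to the hypoxia response element core ACGTG or to the GC box GGGCGG; the AP-1 motif TGANTCA was searched as well and had 0 matches in these 3 windows.
Apln, chrX:48034804-48035103, minus strand: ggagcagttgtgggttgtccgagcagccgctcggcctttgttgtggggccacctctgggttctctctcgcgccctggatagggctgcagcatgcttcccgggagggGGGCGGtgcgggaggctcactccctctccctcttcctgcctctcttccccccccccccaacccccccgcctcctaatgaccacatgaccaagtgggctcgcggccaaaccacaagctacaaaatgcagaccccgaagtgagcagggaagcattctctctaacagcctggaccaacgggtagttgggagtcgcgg
Vegfa, chr17:46032328-46032627, minus strand: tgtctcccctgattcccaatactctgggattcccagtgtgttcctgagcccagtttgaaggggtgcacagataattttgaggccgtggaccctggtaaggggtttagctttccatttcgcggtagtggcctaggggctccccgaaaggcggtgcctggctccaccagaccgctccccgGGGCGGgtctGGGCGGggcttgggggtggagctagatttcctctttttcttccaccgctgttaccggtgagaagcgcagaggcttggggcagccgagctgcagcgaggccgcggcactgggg
Vegfa, a second annotated start, chr17:46025114-46025413, minus strand: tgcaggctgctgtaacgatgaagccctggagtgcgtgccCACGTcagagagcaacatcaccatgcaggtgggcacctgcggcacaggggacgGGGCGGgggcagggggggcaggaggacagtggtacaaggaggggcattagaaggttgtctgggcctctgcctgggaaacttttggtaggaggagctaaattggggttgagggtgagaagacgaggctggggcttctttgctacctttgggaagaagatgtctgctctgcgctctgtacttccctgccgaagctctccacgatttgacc
The Apln window held 1 GC box and no hypoxia response element core, and of the Vegfa windows the outer held 2 GC boxes and the inner 1 GC box and 1 core. The inner window lies within the span of Vegfa, 46016993 to 46032369, past its outer start. Its letters, the core among them, are thus also part of the gene read from the outer start. Whether that core acts as a hypoxia site was not tested. Of all 32851 windows, 35.7% held a GC box, 19.6% a core and 7.81% an AP-1 match, so these matches are common letters and are given as a description.

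Depth set what could be seen. The digit libraries held 1468749 to 13011782 expected counts and the macrophage libraries 15683424 to 27904773. Levels are the authors' normalized TPM (transcript abundance corrected for gene length and library size, then scaled between libraries); the digit and macrophage tables were scaled separately, so no level is compared between them. NR 14d replicate 2 stood apart with normalized TPM that summed to 3362791, so its levels are also given as plain TPM, rescaled by the library's total, in the main places they bear on. NR 7d replicate 2 stood apart with 10025 genes detected, against 11631 or more in every other digit. The labels do not say whether digits came from separate mice: within a group no 2 digits share mark, date and side, but 5 such combinations occur in more than 1 group, on 10 digits, so digits of compared groups may not be independent and p-values measure the spread between these libraries. A gene was called where edgeR's quasi-likelihood test gave a Benjamini-Hochberg adjusted p under 0.05 over all genes tested, with a change of over 2-fold.

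In the NR digits, Apln and Angptl4 were the ligands that changed over the 9 times, and they did so on different courses. Angptl4 was high from 6 h to 24 h and near its starting level again at 21 d. Between these its normalized TPM differed widely among digits, from 2.07 to 16.8 at 7 d and from 0.703 to 60.0 at 14 d. Apln was raised from 12 h and still above every 0 h digit at 21 d. Against 0 h edgeR did not call it at 7 d, 14 d or 21 d. A single test of any change over the time course called 2 of the 10 ligands, Apln (adjusted p = 0.00201) and Angptl4 (adjusted p = 0.0126), against a background of 7.62% of all genes tested. Both calls held with the date period of the labels as a term (adjusted p = 0.00326 and 0.0175) and without the 2 digits that stood apart (1.89e-06 and 0.00472).

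**Figure D1:**
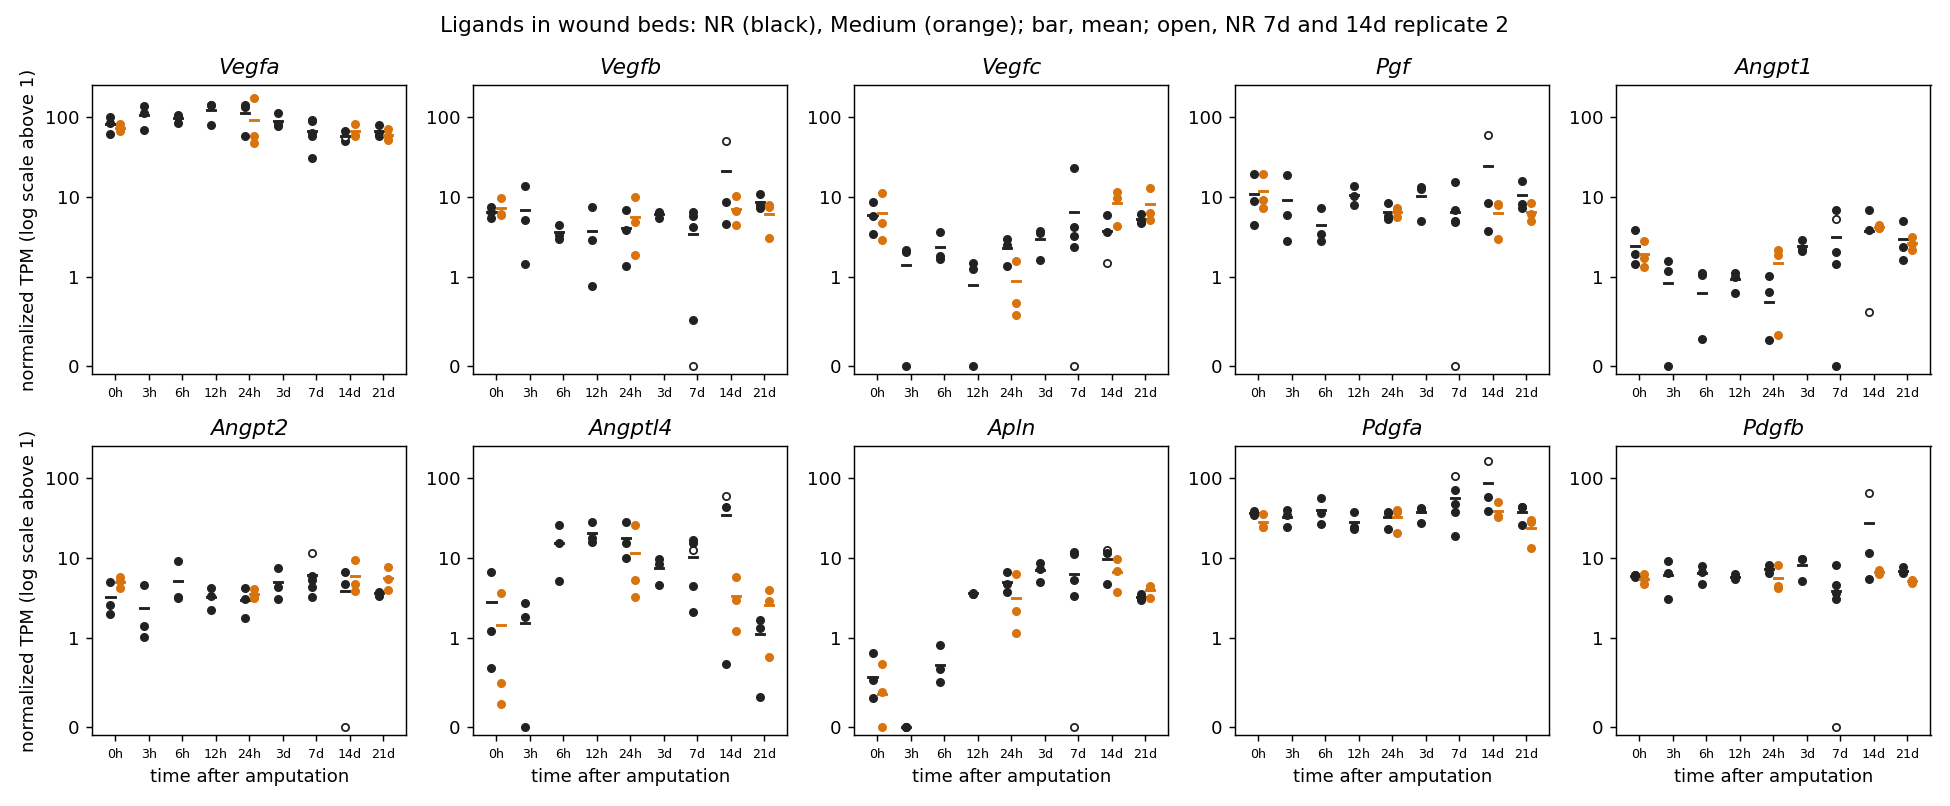
Normalized TPM of each ligand (vertical axis, logarithmic above 1 and linear below) in every digit against time after amputation, NR in black and Medium in orange, with bars at the group means and open symbols for NR 7d and NR 14d replicate 2. Apln lay at 0.824 or less in all 0 h digits and at 2.95 or more in all digits of 21 d, while Vegfa stayed between 30.8 and 171 on this scale.

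Apelin is a peptide of sprouting endothelial cells, and its gene lies at chromosome X, 48025146 to 48034853, on the minus strand (ENSMUSG00000037010). At 0 h its normalized TPM was 0.519, 0.320 and 0.824 in the 3 NR digits, and at 3 h it had 0 counts in all 3, where a count of 0 allows up to 3 counts in each library. It was 0.919, 0.501 and 0.649 at 6 h, within the range of 0 h. At 12 h it was 3.56, 3.54 and 3.64, above every 0 h digit. At 24 h it read 3.72, 4.70 and 6.56, and at 3 d 7.25, 4.92 and 8.70. At 7 d the lowest of the 5 digits was at 0, the median at 5.28 and the highest at 11.7; the digit at 0 was replicate 2, which stood apart. At 14 d the levels were 4.74, 12.5 and 11.6, the second of them from replicate 2, whose plain TPM was 3.73. At 21 d they were 3.12, 2.95 and 3.49, below all 14 d digits and above all 0 h digits on this scale. These levels rest on few counts at the start, 5, 6 and 14 expected counts in the 0 h digits.

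Apln rose by 2.73 ± 0.52 (log2 fold change ± SE, n = 3 and 3) at 12 h against 0 h, by 3.20 ± 0.49 at 24 h and by 3.63 ± 0.49 at 3 d, with adjusted p of 0.0113, 0.0048 and 0.0144 in edgeR. At 12 h, 2 of 10 ligands were called with 11.4% of all genes, at 24 h 2 of 10 with 10.7%, and at 3 d 1 of 10 with 0.723%. The 12 h call was lost without NR 0h replicate 2 (2.41, adjusted p = 0.0531), and the 3 d call without NR 0h replicate 2 (3.32, 0.0800), NR 3d replicate 1 (3.61, 0.0671) or NR 3d replicate 3 (3.45, 0.0900). All 3 calls were lost where the spread was shared over all 41 digits, with log2 fold changes of 2.71, 3.20 and 3.66 and adjusted p of 0.101, 0.0510 and 0.0989. The sizes of the rise moved little in these fits.

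At 7 d no ligand was called by edgeR, with 0.0537% of genes called; 2 ligands had an unadjusted p under 0.05, DESeq2 called 0, and Apln differed by 3.53 ± 1.40. Without NR 7d replicate 2 the Apln difference was 3.85 and was called (adjusted p = 0.0393). At 14 d no ligand was called by edgeR, nor any gene (0%; 271 without NR 14d replicate 2); 2 ligands had an unadjusted p under 0.05, DESeq2 called 2, Apln and Angptl4, and without NR 14d replicate 2 Apln was called by edgeR at 3.82 (adjusted p = 0.0272). At 21 d edgeR called 0 ligands with 0.452% of genes called, 2 had an unadjusted p under 0.05, and DESeq2 called 1, Apln, whose edgeR difference was 2.51 ± 0.45 (adjusted p = 0.0875). At 3 h against 0 h edgeR called 0 ligands and 0% of genes, no ligand had an unadjusted p under 0.05 and DESeq2 called 0; Apln and Angptl4 were too low to be tested there.

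The contrast of the 11 late NR digits (7 d to 21 d) with the 12 acute ones (3 h to 24 h) shares its spread over all 29 NR digits. It called 2 of 10 ligands against a background of 8.37%: Apln was higher late by 3.14 ± 0.60 (adjusted p = 0.000813), and Angpt1 by 1.83 ± 0.56 (adjusted p = 0.0281). The ligands' median was 0.57 and that of all genes 0.09 on the log2 scale. Apln ran from 0 to 6.56 with a median of 2.23 in the acute digits and from 0 to 12.5 with a median of 4.74 in the late ones, so the ranges overlapped. The acute side takes in the 3 h digits, all with 0 counts of Apln, so the size of its difference rests in part on the floor. Not every late time was above every acute one: Apln was 2.95 to 3.49 at 21 d and 3.72 to 6.56 at 24 h. The Apln call was kept without each of the 29 digits in turn and with the date period as a term (3.24, adjusted p = 0.00355).

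Markers of several cell types moved over the same course. The summed normalized TPM of 15 endothelial markers ran from 86.6 to 265 in the acute and from 204 to 1584 in the late NR digits, the highest being NR 14d replicate 2 (471 as plain TPM) and the next 379. Of that list 4 of 15 were higher late and none lower by edgeR, Sox18 (2.36), Cldn5 (1.89) and Ramp2 (1.54) by most, with a list median of 0.71. The share of all genes called late against acute was 8.37%. The sum of 7 fibroblast markers ran from 648 to 4351 in the acute and from 4500 to 34410 in the late digits, the highest again from NR 14d replicate 2. As plain TPM the late ranges were 142 to 471 for the endothelial and 3136 to 31770 for the fibroblast sum, and both overlapped the acute ranges of 78.7 to 284 and 654 to 4667. Macrophage markers moved as well: 3 of 10 were higher late and 1 lower, C1qa (2.09), C1qb (1.84) and C1qc (1.61) among them, and their sum ran from 53.6 to 197 with a median of 77.8 in the acute and from 88.9 to 2041 with a median of 191 in the late digits. As plain TPM the highest late macrophage sum was 607. In bulk tissue more cells of a type and more RNA per cell cannot be told apart, and the part of these cell types in the rise of Apln was not tested. At 12 h, when Apln had risen, none of the 15 endothelial markers was called higher and 2, Cldn5 and Vwf, were lower (-1.73 and -1.65). At 24 h, when Apln was raised as well, Cdh5 of the same list was called higher and Vwf lower.

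The receptors of these ligands were 10 fixed genes, of which 0 were called in any NR time against 0 h by edgeR. Late against acute 4 of 10 were higher and none lower: Aplnr, the apelin receptor, by 2.22 ± 0.37, Flt4, the receptor of Vegfc on lymphatic endothelium, by 2.18 ± 0.55, Pdgfrb, which marks mural cells and fibroblasts, by 1.82 ± 0.28, and Tie1, the partner of Tek, by 1.1 ± 0.31 (adjusted p of 0.000167, 0.00791, 6.66e-05 and 0.0181). Of all genes 8.37% were called in that contrast. Aplnr had a normalized TPM of 4.04, 2.37 and 2.76 at 0 h. It was 0.911, 1.49 and 0.891 at 24 h, below all 0 h digits, and 5.54, 3.4 and 6.99 at 3 d, above all 24 h digits. It was called between those times, 2.25 ± 0.46 higher at 3 d than at 24 h (adjusted p = 0.0364), in a comparison that called 0 of 10 ligands and 2.76% of genes; 2 ligands had an unadjusted p under 0.05 and DESeq2 called 0 ligands. At 24 h ligand and receptor thus lay on opposite sides: all 3 digits were above the 0 h range in Apln and below it in Aplnr, which was not called there. Both were called higher late against acute, and whether their courses differ was not tested.

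**Figure D2:**
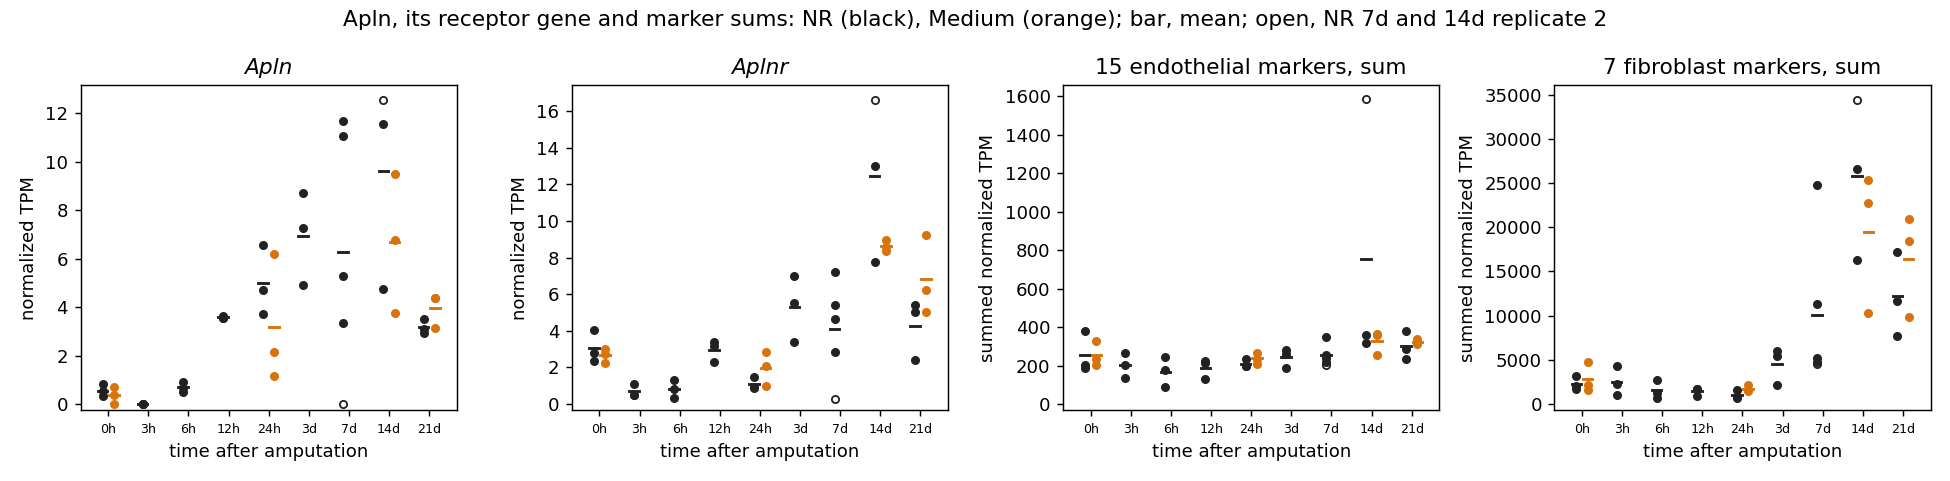
Normalized TPM of Apln and Aplnr and summed normalized TPM of 15 endothelial and 7 fibroblast markers (vertical axes, linear) in each digit against time, NR black and Medium orange, bars at group means, open symbols for NR 7d and NR 14d replicate 2. Apln stood at 3.54 to 3.64 at 12 h, when Aplnr was 2.30 to 3.4, and the fibroblast sum was 4500 or more in every late NR digit.

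Angptl4, a secreted inhibitor of lipoprotein lipase that is induced by fasting, PPAR ligands and low oxygen, lies at chromosome 17, 33773750 to 33781830, minus strand (ENSMUSG00000002289). Its normalized TPM was 6.54, 0.659 and 1.21 at 0 h, and 1.81, 0 and 2.74 at 3 h. At 6 h it was 25.9, 15.1 and 5.05, of which the last lay within the 0 h range. At 12 h it was 15.7, 27.9 and 17.7 and at 24 h 9.79, 15.2 and 27.9, above every 0 h digit at both times. It then read 8.35, 4.55 and 9.70 at 3 d, and at 7 d 2.07 at the lowest, 12.7 at the median and 16.8 at the highest. At 21 d it was 1.66, 1.33 and 0.334, within or below the 0 h range.

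Angptl4 rose by 3.46 ± 0.68 at 6 h (adjusted p = 0.0282), where it was the 1 ligand called of 9 tested with 4.85% of genes called. It rose by 4.02 ± 0.48 at 12 h (adjusted p = 0.00198) and by 3.67 ± 0.57 at 24 h (adjusted p = 0.0051), and both calls were kept without any 1 of the 6 digits. The 6 h call was lost without NR 0h replicate 2 (3.02), NR 0h replicate 3 (3.61), NR 6h replicate 1 (2.80) or NR 6h replicate 2 (3.58), with adjusted p of 0.0865, 0.110, 0.0666 and 0.0770. Where all 41 digits shared the spread, Angptl4 kept its call at 12 h (3.97, adjusted p = 0.0355; with the date period as a term 3.7 and 0.0667, not called) and lost it at 6 h (3.44, 0.137) and 24 h (3.63, 0.0598).

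The 14 d digits differed widely among themselves in Angptl4. Its normalized TPM was 0.703 in replicate 1, 60.0 in replicate 2 and 43.3 in replicate 3, or 0.840, 17.9 and 46.1 as plain TPM, so replicates 2 and 3 were above every 0 h digit on both scales and replicate 1 was not. The summed level of 9 neutrophil markers was 35.0, 316 (93.8 as plain TPM) and 2463 in the same order, the last being the highest sum of all digits. Over the earlier times that sum was 20.7 to 30.4 at 0 h, 189 to 252 at 6 h, 408 to 1138 at 12 h and 1135 to 1301 at 24 h, and at 21 d 3.56 to 28.3. It was 647 to 1110 at 3 d, as high as at 12 h, when Angptl4 had come down to between 4.55 and 9.70, and 66.1 to 926 at 7 d. The neutrophil sum thus was above the 0 h range at 6 h, 12 h and 24 h, as was Angptl4 in all but 1 digit, and stayed there at 3 d. The part of these cells in Angptl4 levels was not tested. Medium 14d replicate 1, with a neutrophil sum of 2170, had an Angptl4 level of 5.75.

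Of 15 hypoxia-response genes, 2 were called higher at 6 h, Pfkfb4 (1.41) and Ndrg1 (1.30), and 3 higher and 1 lower at 12 h. At 24 h and at 3 d 1 was called higher, Slc2a1, the glucose transporter (1.77 and 1.36). Of 7 PPAR targets none was called higher at any NR time against 0 h. The medians of the hypoxia list were 0.16, 0.24, 0.40 and 0.35 at 6 h, 12 h, 24 h and 3 d, against medians of all genes of -0.03, -0.03, -0.04 and -0.0049. Of the 15 hypoxia genes 6, 9 and 5 had an unadjusted p under 0.05 at 6 h, 12 h and 24 h, and the calls stand against the 4.85%, 11.4% and 10.7% of all genes called at these times. The part of low oxygen or PPAR ligands in Angptl4 levels was not tested.

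Vegfa, the main growth factor of endothelial sprouting, had the highest mean of the ligands in each digit group but NR 14 d, where Pdgfa was higher with overlapping ranges (chromosome 17, 46016993 to 46032369, minus strand; ENSMUSG00000023951). In the NR digits its normalized TPM was 100, 60.4 and 82.6 at 0 h, 79.9, 139 and 142 at 12 h, and 133, 58.1 and 142 at 24 h. It was 50.2, 55.8 and 66.7 at 14 d and 60.5, 57.6 and 79.0 at 21 d. The second of the 14 d digits was replicate 2, which stood apart, and as plain TPM its Vegfa was well below both other 14 d digits. The difference from 0 h was 0.60 ± 0.26 at 12 h (adjusted p = 0.135) and -0.65 ± 0.27 at 21 d (adjusted p = 0.667), neither called. Late against acute it was -0.59 ± 0.21 (adjusted p = 0.0573), with levels of 30.8 to 90.8 late and 58.1 to 142 acute.

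Pdgfa, a growth factor for mesenchymal cells, was second to Vegfa by mean in the other digit groups (chromosome 5, 138976014 to 138997370, minus strand), and its levels were 34.3 to 38.0 at 0 h, 22.8 to 37.8 at 24 h and 25.8 to 43.2 at 21 d. Its highest value, 163 in NR 14d replicate 2, was 48.4 as plain TPM, between the 46.1 and 61.4 of the other 14 d digits. Late against acute Pdgfa differed by 0.69 ± 0.24 (adjusted p = 0.0529) and by 0.28 ± 0.28 with the date period as a term. A test of the later against the earlier label dates over all 41 digits, with group and time as terms and chosen after the data were seen, called 1 of 10 ligands and 8.23% of genes: Pdgfa was higher in the digits with later dates by 0.67 ± 0.19 (adjusted p = 0.0198). Pdgfb, which endothelial cells use to recruit mural cells (chromosome 15, 79995874 to 80014977, minus strand), read 6.13, 6.06 and 5.75 at 0 h, 7.14, 8.12 and 6.46 at 24 h and 6.68, 7.62 and 6.40 at 21 d. Pdgfb was called at no time, and its difference from 0 h was 0.33 ± 0.24 at 24 h and 0.20 ± 0.21 at 21 d.

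The other VEGF family genes were low. Vegfb, a ligand of Flt1 tied to fatty acid handling (chromosome 19, 6982473 to 6987651, minus strand), had a median of 5.93 over all digits, Pgf, the placental growth factor that also binds Flt1 (chromosome 12, 85166635 to 85177790, minus strand), 7.24, and Vegfc, the lymphatic growth factor (chromosome 8, 54077606 to 54187096, plus strand), 3.45. None was called at any time against 0 h by edgeR or DESeq2. Vegfc read 8.65, 3.45 and 5.66 at 0 h and 0, 1.24 and 1.48 at 12 h, without overlap, and differed by -1.81 ± 0.86 (adjusted p = 0.169). Late against acute Vegfc differed by 1.31 ± 0.54 (adjusted p = 0.109), and it was called higher without NR 7d replicate 2 (1.43, adjusted p = 0.0218), in which it had 0 counts. NR 14d replicate 2 held the highest Vegfb, Pgf and Pdgfb of all digits, 49.2, 59.6 and 63.8, which as plain TPM were 14.6, 17.7 and 19.0 and still above the other 14 d digits.

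Angpt1, the ligand that activates Tek and steadies vessels (chromosome 15, 42424723 to 42676977, minus strand), was the lowest or next to lowest ligand by mean at each of the 9 NR times. Its normalized TPM was 3.88, 1.43 and 1.92 at 0 h, 1.1, 0.820 and 0.996 at 12 h and 0.832, 1.02 and 0.284 at 24 h, below all 0 h digits at both times. At 14 d it was 3.85, 0.605 and 6.87, and at 21 d 2.33, 1.63 and 4.94. At 24 h the difference was -1.64 ± 0.59 and was not called by edgeR (adjusted p = 0.0919); DESeq2 called it lower. The call late against acute was lost without NR 14d replicate 3 (1.61, adjusted p = 0.0584), without NR 21d replicate 3 (1.67, 0.0668) and with the date period as a term (1.95, 0.0510). The rise of the fibroblast marker sum given above accompanied it, and its part was not tested.

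Angpt2, which endothelial cells release when vessels are loosened (chromosome 8, 18690263 to 18741562, minus strand), read 5.03, 2.57 and 1.96 at 0 h, and its group means over all digits lay between 2.32 and 6.03. It was called at no time: the difference from 0 h was 0.76 ± 0.53 at 6 h and 1.02 ± 0.63 at 7 d. Angpt2 overlaps Mcph1, which runs on the opposite strand, Angpt1 and Pdgfa each overlap 1 antisense gene, and Pdgfb overlaps 1 antisense gene and 1 microRNA gene; whether counting used strand is not given in the sources used here, so such reads cannot be told apart.

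**Figure D3:**
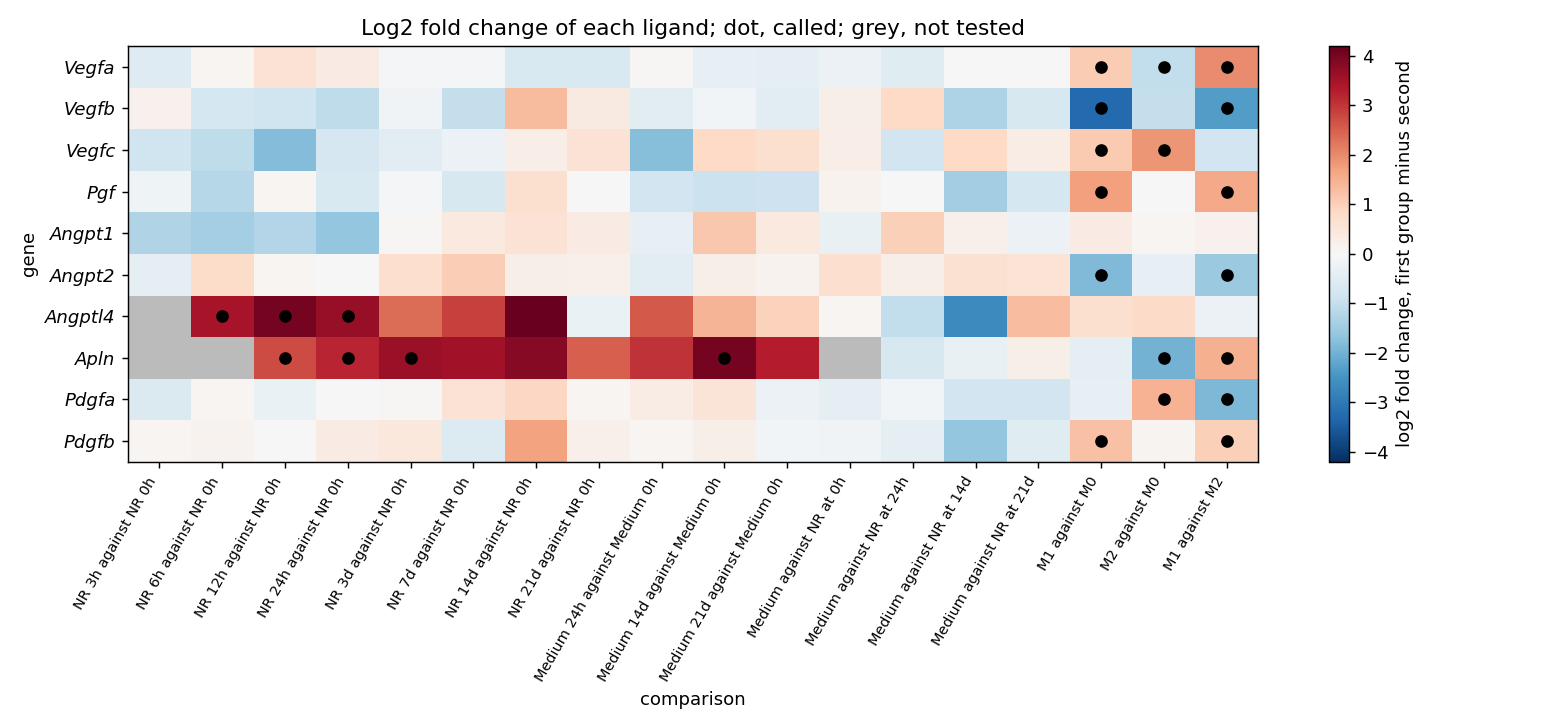
Log2 fold change of each ligand (rows) in each comparison of 2 groups (columns), the group named first minus the second, on a colour scale from -4.2 to 4.2, with a dot where the ligand was called and grey where it was too low to be tested. Dots in the digits stand at Angptl4 (6 h, 12 h and 24 h) and Apln (12 h, 24 h, 3 d and Medium 14 d), and 17 dots stand in the 3 macrophage columns.

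The Medium digits ask whether the ligands run another course at the lower amputation level. Apln read 0.384, 0.709 and 0 at 0 h, 6.21, 1.14 and 2.13 at 24 h, 3.75, 6.76 and 9.51 at 14 d, and 3.15, 4.36 and 4.38 at 21 d, above all Medium 0 h digits at each later time. It was called at 14 d, at 4.02 ± 0.73 (adjusted p = 0.0333), as the 1 ligand of 10 with 1.68% of genes called. That call was lost without Medium 0h replicate 1 (4.0), Medium 0h replicate 2 (4.69), Medium 14d replicate 2 (4.01) or Medium 14d replicate 3 (3.69), with adjusted p of 0.114, 0.113, 0.149 and 0.127. At 21 d edgeR called 0 ligands with 1.39% of genes; 1 ligand had an unadjusted p under 0.05, Apln at 3.30 ± 0.71 (adjusted p = 0.0521), which DESeq2 called, as did edgeR without Medium 0h replicate 3 (2.85, adjusted p = 0.0321). At 24 h edgeR called 0 ligands with 0.0152% of genes, 3 had an unadjusted p under 0.05, and DESeq2 called 1, Apln, for which edgeR gave 3.03 ± 0.94.

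Angptl4 in the Medium digits was 0.250, 0.485 and 3.59 at 0 h and 25.8, 3.25 and 5.22 at 24 h, and was not called (2.56 ± 0.96, adjusted p = 0.272). The digit at 25.8, replicate 1, also had the highest Vegfa of all digits, 171, the highest Apln of its group and a neutrophil sum of 1354, against 142 and 415 in the others. It was the 1 Medium 24 h digit with the earlier date in its label. At 14 d 3 of 10 receptors were called higher than at Medium 0 h, Aplnr (1.66 ± 0.25), Nrp2, a co-receptor of Vegfc (1.19 ± 0.13), and Pdgfrb (1.28 ± 0.26), and at 21 d Pdgfrb alone (1.35 ± 0.21). Of all genes 1.68% and 1.39% were called at these times.

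Between Medium and NR digits of the same time no ligand was called by edgeR or DESeq2 at 0 h, 24 h, 14 d or 21 d, where edgeR called 0%, 0%, 0% and 0.648% of genes. At 14 d no gene at all was called under any library left out, so the lack of a ligand call there carries no information; at 24 h 653 genes were called without Medium 24h replicate 1, and still no ligand. The number with an unadjusted p under 0.05 was 0, 0, 1 and 1 of the ligands tested. The difference averaged over the 4 times called 0 of 10 ligands in edgeR and 0% of genes; 2 had an unadjusted p under 0.05, Pdgfb (-0.65 ± 0.23) and Pdgfa (-0.52 ± 0.19), both with an adjusted p of 0.633, and without NR 14d replicate 2 these were -0.35 ± 0.14 and -0.42 ± 0.17. Apln differed by -0.30 ± 0.31 and Angptl4 by -0.58 ± 0.50. A test of whether the courses differed between the groups called 0 of 10 ligands in edgeR and 0% of genes, with 0 ligands at an unadjusted p under 0.05; the smallest adjusted p was 0.66, for Angptl4. DESeq2 was not run on these last 2 tests. Neither called any gene at all under any library left out, so their lack of a ligand call carries no information either. At 14 d Angptl4 was 5.75, 2.98 and 1.2 in Medium against the 0.703, 60.0 and 43.3 in NR, a difference of -2.69 ± 1.16 that was not called (adjusted p = 0.862).

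In other genes that act on vessels, some members of the fixed lists were called in the NR digits. Of 10 further ligands, 8 were tested and Adm, the vasodilator adrenomedullin, was called higher at 6 h, 12 h and 24 h (1.44, 1.52 and 1.63), the 1 gene of its list called at each of these times. Of 8 inhibitors of angiogenesis, 7 of them tested at the early times, Adamts1, a protease that binds VEGF, was higher at 6 h, 12 h and 24 h (2.85, 2.72 and 2.19), with Thbs1 at 12 h (1.95), while Serpinf1 was lower at 24 h (-1.13). These are 1 of 7 at 6 h, 2 of 7 at 12 h and 2 of 7 at 24 h, against the 4.85%, 11.4% and 10.7% of all genes. Late in the course others of that list were higher: Thbs2 at 21 d by 3.89 ± 0.26 and Sparc by 2.07 ± 0.31, with 3.93 and 2.41 in Medium at 14 d. Late against acute 4 of 8 inhibitors were higher and 1 lower, with a median of 1.05 on the log2 scale and 8.37% of all genes called. Thbs2 and Sparc are also matrix genes of fibroblasts, whose markers rose as given above.

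The genes most like each ligand over the 29 NR digits were those with the highest Spearman's rho among 10711 genes with a mean normalized TPM of 5 or more; the digits share their libraries' depth and scaling, and no test was made. Apln went with Dok1 (0.878), Ccne1 (0.867) and Ctsb (0.866), and Angptl4 with Timp1 (0.841), Fth1 (0.833) and Efhd2 (0.824). For Vegfa they were Ehf (0.795), Ripk1 (0.772) and Coq10b (0.763), for Vegfb Npr1 (0.811), Prelp and Capn5, for Vegfc Pgrmc1 (0.83), Cdkn1b and Fads1, and for Pgf Kcnn4 (0.748), Prrx2 and Ifnar1. For Angpt1 they were Fut11 (0.825), Meox2 and Igf1, for Angpt2 Snx18 (0.731), Nfatc1 and Uhrf2, for Pdgfa Prr5 (0.760), Plppr3 and Arl6ip5, and for Pdgfb Slc25a28 (0.793), mt-Atp6 and Ndufb5. Each ligand had a different set of 3, so none of these genes was shared between ligands.

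The macrophage libraries ask which ligands macrophages express in each state. Their defining markers were present: Csf1r ran from 440 to 1637 and Cd68 from 1217 to 1888 normalized TPM over the 9 libraries. All 7 M1 markers rose in M1 and 5 of 7 M2 markers rose in M2, where Clec10a of the M2 list was lower (-1.58). Of the 7 M1 markers 6 were also higher in M2 than in M0, Nos2 by 3.81 on the log2 scale (5.53 to 6.64 normalized TPM, against 2644 to 2764 in M1). Arg1 and Ccl22, on the M2 list, were higher in M1 as well (11.08 and 4.41). Chil3, Clec10a and Mrc1 of that list were lower in M1 (-3.58, -5.77 and -4.11). Vegfa had the highest level in M0 and M1, and in M2 it was followed by Pdgfa; Vegfc and Angpt1 were the lowest in all 3 states.

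**Figure D4:**
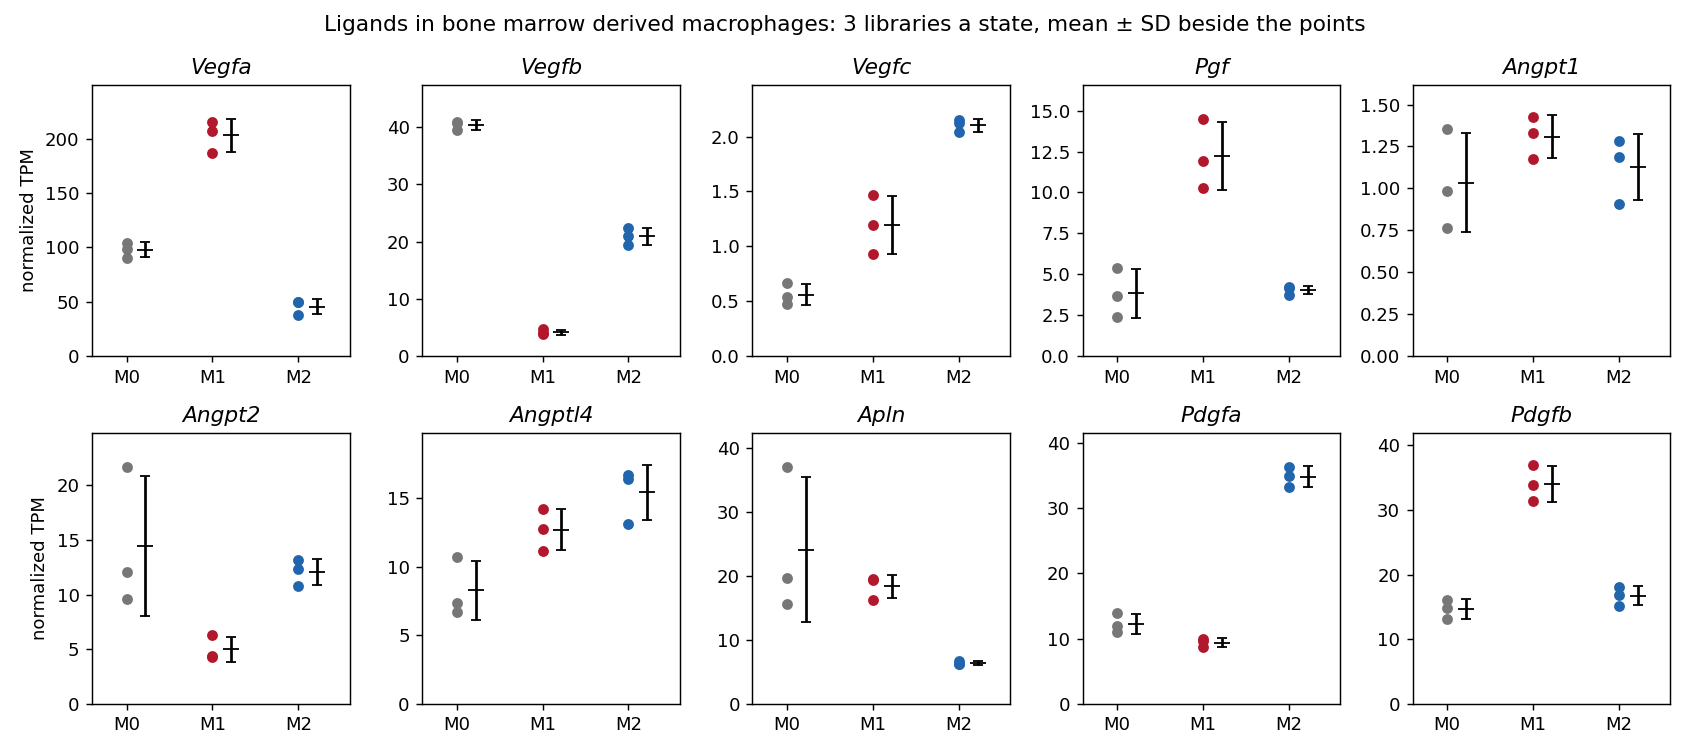
Normalized TPM of each ligand (vertical axes, linear from 0) in M0, M1 and M2, 3 libraries each as points, with the mean and SD beside them. Vegfa stood at 187 to 216 in M1 and 37.7 to 49.4 in M2, on either side of the 90.7 to 104 of M0, and Pdgfa was 33.3 or more in M2 and 14 or less elsewhere.

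M1 against M0 called 6 of 10 ligands, with a background of 46.1% of all genes, which is near the share of ligands called. The normalized TPM summed to 1331226 to 1355441 in the M1 libraries, against 786283 to 820932 in M0 and 892687 to 926275 in M2. As plain TPM the rises into M1 would thus be smaller, and the falls larger, than the levels given here. The log2 fold changes rest on edgeR's own scaling between libraries, and how far these rises depend on scaling was not tested. Vegfa was 104, 90.7 and 98.9 in M0 and 208, 187 and 216 in M1, without overlap, and rose by 1.05 ± 0.06 (adjusted p = 7.04e-09). Pgf was 2.40, 5.39 and 3.68 in M0 and 10.3, 11.9 and 14.5 in M1 (1.71 ± 0.24), and Pdgfb 13, 16.1 and 14.9 against 37.0, 33.8 and 31.4 (1.23 ± 0.09), also without overlap. Vegfc rose from 0.476, 0.535 and 0.667 to 0.931, 1.19 and 1.46 (1.1 ± 0.29), a low level on 16 to 35 expected counts in M1. Vegfb fell from 39.5, 40.8 and 40.9 to 3.95, 3.86 and 4.63, a log2 fold change of -3.26 ± 0.11 that was the largest of any ligand in the macrophages. Angpt2 fell from 9.64, 21.7 and 12 to 4.37, 6.33 and 4.26 (-1.85 ± 0.28). The calls of Vegfa and Vegfc stood at the 2-fold limit, which is set on mean normalized counts: Vegfa lost its call without M1 replicate 3 (1.0), and Vegfc without M1 replicate 3 (0.92) or M0 replicate 1 (1.0).

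M2 against M0 called 4 of 10 ligands with a background of 22.3%. Pdgfa rose from 11.0, 14 and 11.9 to 33.3, 35.0 and 36.4 (1.47 ± 0.08, adjusted p = 3.12e-08), and Vegfc to between 2.04 and 2.15 (1.84 ± 0.20), its highest level in the macrophages. Vegfa fell to 49.4, 49.3 and 37.7 (-1.04 ± 0.08), a call lost without M2 replicate 3 (-0.94) or M0 replicate 1 (-0.99). Apln fell from 15.6, 36.9 and 19.6 to 6.27, 6.14 and 6.62 (-1.98 ± 0.27). Vegfb fell short of the fold limit at -0.99 ± 0.07 (22.3, 19.4 and 21 in M2), passing it without M2 replicate 1 (-1.05). Angptl4 was 7.39, 10.7 and 6.72 in M0, 13.1, 16.8 and 16.4 in M2 and 11.2, 14.2 and 12.7 in M1, with differences of 0.82 ± 0.15 and 0.66 ± 0.16 that passed the adjusted p (0.000424 and 0.00186) but not the fold limit; without M0 replicate 2 the first was 1.03 and was called.

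M1 against M2 called 7 of 10 ligands with a background of 48.0%. Vegfa (2.0 ± 0.08), Pgf (1.59 ± 0.15), Apln (1.5 ± 0.08) and Pdgfb (1.0 ± 0.07) were higher in M1, and Vegfb (-2.36 ± 0.13), Pdgfa (-1.90 ± 0.07) and Angpt2 (-1.57 ± 0.11) higher in M2, each without overlap of the 3 libraries. The Pdgfb call was lost without M1 replicate 1 or M2 replicate 3 (0.94 in both). Vegfa and Pdgfa thus were opposite between the treated states. Angpt1 was called in none of the 3 comparisons, with levels from 0.764 to 1.42.

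Receptors changed in the macrophages too. In M1 against M0, 1 of 10 was higher, Nrp2 (2.14 ± 0.05), and 6 lower, among them Nrp1, a co-receptor of Vegfa (-2.72 ± 0.06; 266 to 273 normalized TPM in M0 and 38.9 to 43.6 in M1). In M2 against M0, 3 were higher and none lower: Flt1, the receptor of Vegfa, Vegfb and Pgf, rose by 7.24 ± 0.19, from 0.837, 1.86 and 1.16 to 218, 188 and 188, and Nrp2 and Pdgfra rose by 1.1 and 1.16. Of the 15 hypoxia-response genes 10 were higher in M1 than in M0 and none lower (median 1.88, against -0.09 for all genes). Pfkfb3 (4.80), Ero1l (4.13) and Slc2a1 (4.12) rose by most, and in M2 1 was higher and 2 lower. These receptor and hypoxia counts stand against 46.1% of all genes called in M1 against M0, 2602 higher and 3359 lower. In M2 against M0 22.3% were called, 1427 higher and 1469 lower. Of the other vessel ligands Adm rose in both treated states (2.62 and 1.49).

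Markers of other cells were present in the cultures at levels that differed between libraries. The summed level of 15 endothelial markers was 88.7, 185 and 101 in M0, 110, 121 and 119 in M1 and 182, 165 and 195 in M2, and M0 replicate 2, the highest of its group, also held the highest Pgf, Angpt1, Angpt2, Angptl4, Apln, Pdgfa and Pdgfb of M0. Cldn5 was 1.67, 5.59 and 2.39 in M0, 0.0810, 0 and 0.226 in M1 and 4.71, 3.77 and 6.71 in M2, and Sox18 was 2.70, 9.50 and 2.77 in M0 and 0, 0 and 0.200 in M1. In M1 against M0, where 3359 of the 12939 genes tested were lower, 10 of 15 of the endothelial list were lower. Of 8 mural markers tested 8 were lower as well, among them Acta2 (6.14 to 8.33 against 228 to 345). Angpt2 fell in M1 with these markers, and their part in its fall was not tested. In M2 Apln fell while 2 of the 15 endothelial markers were higher and 1 lower. Without M0 replicate 2, Angpt2 in M1 and Apln in M2 were still called, at -1.41 and -1.53. Fibroblast markers were present too: the sum of 7 was 568 to 849 in M0, 375 to 435 in M1 and 1078 to 1209 in M2. Their part in the levels of Pdgfa and the other ligands was not tested.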

How the data were processed

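Wound bed and macrophage RNA was made into ligation-mediated, poly(A)-selected libraries and, per the labels and the study's methods, aligned to mm10 with Bowtie and quantified with RSEM 1.2.3. The deposited expected counts (estimated reads per gene, not normalized) and the authors' normalized TPM (a signal scaled by median ratios, for digits and macrophages separately) were used. 26 date-mangled gene names were restored from the tables' transcript lists.

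Expected counts were rounded and tested with edgeR 4.0.16 (filterByExpr, TMM, quasi-likelihood, Benjamini-Hochberg over all genes tested); pairs were called at adjusted p under 0.05 and over 2-fold of mean normalized count + 1, contrasts at over 2-fold, and tests of several coefficients at adjusted p alone. SE is the log2 fold change over the root of F. EBSeq, used by the study, was replaced by edgeR. Scripts were tested on simulated data. Alternatives were DESeq2 1.42.0, its size factors, no count filter, no fold threshold, a shared spread, the date period, a replicate block and leaving out libraries; leaving out both digits that stood apart together was chosen after seeing the data. Depth limits low genes, and a count of 0 allows up to 3 counts, for counting error only. In each comparison all 10 ligands and 10 receptors were looked at. Of the other lists only some called genes were named, not always those with the largest change. Single marker levels of the macrophages were chosen after their values were seen. Coordinates are GENCODE M21 (GRCm38), where all 10 Ensembl IDs matched. The ligands and all lists were chosen with earlier results of these data known. 1 gene of the PPAR target list is not reported here.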

Additional observations from a re-analysis of the deposited data

Results flagged for a closer look

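In the 5 NR digits of 7 d, 1 of the 10 ligands held a value far from the others: Vegfc was at 22.7 normalized TPM in replicate 5, on 28 expected counts, against 0 to 4.16 in the other 4, whose replicate 3 had 32 counts. The gap in normalized TPM to the nearest digit over the whole range passed Dixon's 95% limit, which chance passes in about 1 of 20 groups. Replicate 5 held 4667156 expected counts in all and replicate 3 held 8320319. The gap in Vegfc between these digits was thus much narrower in counts than in normalized TPM. The test of a difference in course between Medium and NR digits called no ligand and no gene at all, so it cannot tell whether the courses differ.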

How the results depend on the processing

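In 420 recomputations of the called ligands no direction turned (160 under other settings, of which 16 lost the call, and 260 leaving out 1 library, of which 21 did). Those of the time course test give no direction and so could not turn. They were 29 leaving out 1 digit and 4 under other settings for each of Apln and Angptl4. The 24 with no fold threshold reuse the main fit, so their direction and call were fixed in advance. With all libraries in 1 fit the number of ligands called was 0 at NR 6 h, 1 at 12 h, 0 at 24 h, 0 at 3 d, 1 at 7 d and 2 at 14 d; with the date period as well it was 0, 0, 0, 0, 1 and 2. DESeq2 called 2 at NR 3 d, 2 at 14 d, 1 at 21 d, and 1 each at Medium 24 h and 21 d; with no count filter 1 was called at Medium 21 d. Late against acute called 1 with the date period as a term; DESeq2's size factors moved the median of all genes there from 0.09 to 0.24 and the split of all genes from 860 higher and 348 lower to 1270 and 277, with the same number of ligands called. Apart from these, the number of ligands called stayed within 1.5 times under every setting run. NR 3 h, NR 12 h and Medium 21 d digits all had the earlier dates and NR 21 d digits the later, so date and group cannot be told apart there; the cause of the lost calls was not tested. Counts of all genes called moved more. At NR 3 h, 6 h, 12 h, 24 h, 3 d, 7 d, 14 d and 21 d against 0 h, where 0, 638, 1491, 1437, 96, 7, 0 and 62 genes were called, 1, 116, 421, 331, 35, 163, 731 and 33 were called with all libraries in 1 fit. DESeq2 called 196 at 3 h, 1113 at 6 h, 450 at 3 d, 161 at 7 d, 354 at 14 d and 252 at 21 d, and 748 at 3 d against 24 h, where edgeR called 358 and the fit of all libraries 17. In Medium at 24 h, 14 d and 21 d, 2, 224 and 186 genes were called, against 20, 56 and 25 with all libraries in 1 fit and 350, 507 and 413 in DESeq2. Between Medium and NR at 0 h, 24 h and 21 d, edgeR called 0, 0 and 89 genes, the fit of all libraries 0, 1 and 0, and DESeq2 17, 155 and 204. With the date period added to that fit 2, 118, 301, 333, 39, 173 and 838 genes were called from NR 3 h to 14 d, 23 at 3 d against 24 h, 24, 65 and 25 in Medium, and 0 between the groups at 21 d and 1 at 24 h. With no count filter 16 were called at NR 3 h, 175 at 3 d, 4 at 14 d, 70 at Medium 24 h and 291 at Medium 21 d. Without a fold threshold 2368 were called at NR 12 h, 2252 at 24 h, and in the macrophages 11094, 9747 and 11359 where there were 5961 (M1 against M0), 2896 (M2 against M0) and 6208 (M1 against M2). The time course called 1100 genes, 2354 with DESeq2's size factors and 3003 without the 2 digits that stood apart.

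Leaving out 1 library, the number called ran from 0 to 1 at NR 6 h, 3 d, 7 d and 14 d and at Medium 14 d and 21 d, from 1 to 2 at NR 12 h and from 1 to 3 late against acute. Counts of all genes ran from 0 to 84 at NR 3 h, 108 (without NR 0h replicate 3) to 605 at 6 h, 804 to 1895 at 12 h, 817 to 1707 at 24 h, 43 to 203 at 3 d, 0 to 78 at 7 d, 0 to 271 at 14 d, 4 to 77 at 21 d and 0 to 683 at 3 d against 24 h. They ran from 1 to 37, 23 to 393 and 45 to 280 in Medium at 24 h, 14 d and 21 d, from 0 to 653 and 0 to 119 between Medium and NR at 24 h and 21 d, and from 802 to 2073 for the time course. In the macrophages it ran from 4 to 6 (M1 against M0), 3 to 5 (M2 against M0) and 6 to 7 (M1 against M2). The macrophage replicate numbers share only a number: deviations of same-numbered libraries correlated between -0.14 and 0.14 (9 pairs) and of others between -0.14 and 0.16. With the replicate number as a block 6, 4 and 7 ligands were called, as without it, and 2602 higher and 3355 lower genes in M1 against M0, where there were 2602 and 3359 without. Digit labels carry no replicate numbers. Over all 41 digits the rho of Vegfb, Angpt2, Pdgfa and Pdgfb with their closest gene of the NR digits was between 0.599 and 0.708.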

Other observations

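The digit labels carry dates in an earlier period (24 digits) and a later period (17 digits). Beside Pdgfa, called higher in the later period as given above, 1 of the 10 receptors was called by edgeR: Tek, the angiopoietin receptor, was lower, at -0.95 ± 0.31 (log2 fold change ± SE, adjusted p = 0.0482). At 7 d Pdgfa was 18.7 and 36.9 normalized TPM in the 2 earlier digits and 47.5 to 107 in the 3 later ones, and at 14 d 32.5 to 38.6 in 3 earlier and 49.8 to 163 in 3 later digits of both groups.

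Vegfa at 24 h also separated by date: it was 133, 142 and 171 in the 3 digits with earlier dates and 47.2, 57.9 and 58.1 in the 3 with later dates, each set holding NR and Medium digits. Over all times its difference between the periods was -0.12 ± 0.19 (adjusted p = 0.783), so the split at 24 h, picked after the values were seen, is given as a value with no test of its own.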
